A study of Homo sapiens with 24 samples.

Results

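Messenger RNA was compared between MCF-10A MYC-ER cells treated with 1 µM 4-hydroxytamoxifen (4-OHT) for 48 h and the same line at 0 h of treatment, across the gene count matrix of the series. The comparison used the 3 libraries labelled MYC-ER 48 h and the 3 labelled MYC-ER 0 h, 6 of the 24 libraries in all. MCF-10A is a non-tumorigenic human mammary epithelial line, described in the labels as human mammary epithelial cells. The MYC-ER line carries a fusion of MYC with the ligand-binding domain of the oestrogen receptor, and the 0 h cells carry the same fusion without 4-OHT. Both groups grew in 3D on Matrigel with reduced growth factors, on 4-well chamber slides seeded with 10000 cells per well. 4-OHT was added so that all cultures were collected together on day 5, with the 48 h treatment starting on day 3. The labels record a medium change during culture, and whether 4-OHT was renewed was not given in the sources used here. The other lines of comparison were the parental MCF-10A cells without the fusion, collected at 0 h and 48 h of 4-OHT, and MYC-ER cells at 24 h, with 3 libraries each. The labels do not say which promoter drives the fusion, whether the line is 1 clone, or whether replicates came from separate cultures. The p-values therefore measure only the spread between libraries of a group, pooled over all 24 libraries in the fit.

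MYC is a transcription factor that pairs with MAX and binds E-box sequences at the promoters of genes for ribosome assembly, nucleotide and amino acid supply, glycolysis and cell cycle entry. In the fusion, MYC is held inactive by chaperones until 4-OHT binds the receptor domain, so that activity can be switched on without making new protein. MCF-10A cells on Matrigel form acinus-like structures whose cells slow their division as the structures mature. The MXD and MNT proteins compete with MYC for MAX, and the p53 and FOXO pathways and the BCL2 family are known to set how cells respond to strong MYC activity.

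The 6 libraries held 136860029 to 180459929 counts in genes. Transcripts of the mitochondrial genome took 9.24% to 9.71% of counts at 0 h and 6.57% to 6.78% at 48 h, and the 10 genes with most counts took 12.1% to 12.5% at 0 h and 8.85% to 8.95% at 48 h. Levels below are counts scaled to library size (CPM) with edgeR's TMM factors, which ran from 0.9774 to 1.003 at 0 h and from 1.096 to 1.111 at 48 h. Levels in CPM are not corrected for gene length and are compared only within a gene. A gene was called when edgeR's quasi-likelihood test gave a Benjamini-Hochberg adjusted p under 0.05, with all 24 libraries in the fit. Among the libraries used for comparison, the parental 0 h libraries stood apart from each other: their pairwise chi-square over genes was 159, 234 and 261 per degree of freedom, against 8.45 to 63.3 between replicates of every other group. Mitochondrial transcripts took 3.86%, 7.28% and 7.03% of their counts. This group is the reference of every parental and interaction value below. Its spread also enters the standard errors and p-values of the MYC-ER comparisons, since each gene's spread was estimated from all 24 libraries. With only the MYC-ER 0 h and 48 h libraries in the fit, 12084 genes were called, against 9772. In a bulk sample, fewer cells with a transcript and less of it per cell cannot be told apart.

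Of 22158 genes tested, 9772 were called (44.1%). These were 5179 higher at 48 h (23.4%) and 4593 lower (20.7%), and the count of calls at least 2-fold higher was 2330 (10.5%), against 631 at least 2-fold lower (2.85%). The 3 values of each group did not overlap for 13808 genes (62.3%). Small shifts made up much of the total, since 4949 called genes changed by under 1.5-fold, while 651 rose and 106 fell by at least 8-fold. The counts of the 35 gene lists below are to be read beside the shares of all genes called higher and lower, and the lists were drawn up with earlier results of these data known. The summed level of the genes that fell went from 506600 to 340900 CPM, and that of the genes that rose from 139200 to 206800 CPM. The split depends on the scaling. When libraries were scaled by their size only, the median change of all genes went from 0.03 to 0.19 on the log2 scale, a shift of 0.16, and 73.8% of the calls were higher, against 53% with TMM. Changes below are relative to the TMM scaling, and the direction of those no larger than this shift can depend on it. Some larger changes also lost their call with library size alone, such as that of TFRC (log2 change -0.42 with TMM). Where only genes with at least 10 counts in every library were tested, 1764 genes were called with at least a 2-fold change, against 2961.

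**Figure D1:**
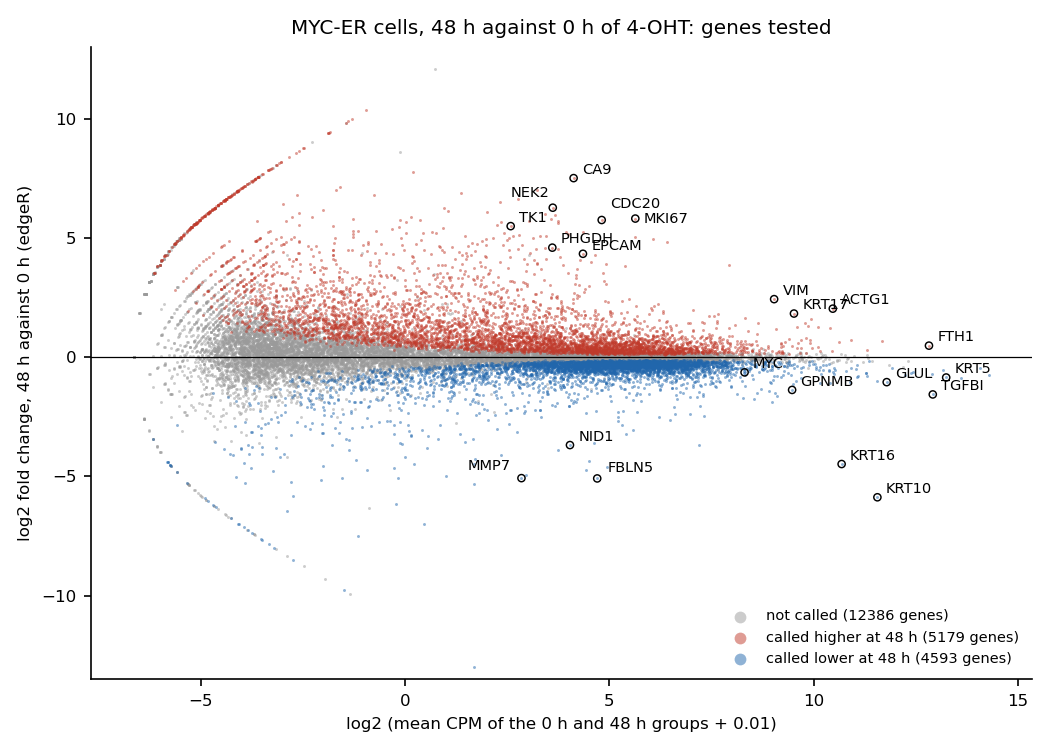
Log2 fold change of each of the 22158 genes tested (y axis, MYC-ER 48 h against 0 h, edgeR) against its mean level in the 6 libraries' 2 groups (x axis, log2 of CPM + 0.01), with called genes in red (5179 higher) and blue (4593 lower). The genes named on the plot with the largest changes lie at 5 or more log2 units (CA9, NEK2, MKI67, CDC20, TK1 above 0 and KRT10, FBLN5, MMP7 below), and the curved bands at the left edge are the 433 genes at 0 counts in all libraries of 1 group, whose fitted change is set by edgeR's default prior count.

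The MYC transcript was lower at 48 h. It read 394, 378 and 388 CPM at 0 h and 244, 247 and 253 CPM at 48 h, with no overlap (log2 change -0.64 ± 0.0673 SE, adjusted p = 7.19e-08). These reads could come from the cell's own MYC gene or from the fusion, which the counts do not separate. MAX, its binding partner, read 54.4, 53.9 and 54.8 CPM at 0 h and 40.2, 41.2 and 41 CPM at 48 h, and every 48 h value was below every 0 h value (log2 change -0.41 ± 0.0507 SE, adjusted p = 6.98e-07). ESR1, the gene of the oestrogen receptor, was low in all 6 libraries, at 0.557, 0.527 and 0.456 CPM at 0 h and 0.329, 0.456 and 0.274 CPM at 48 h, with overlapping groups (log2 change -0.54, adjusted p = 0.359).

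Among called genes with at least 10 CPM in the higher group and no overlap between groups, the 12 largest rises were CA9, CR2, PIF1, NEK2, UBE2C, TROAP, MKI67, KIF2C, CDC20, DLGAP5, BIRC5 and KIF14, and 10 of them are genes of mitosis or chromosome maintenance. NEK2, a kinase of centrosome separation (chr1:211658256-211675621, GRCh38), read 0.244, 0.312 and 0.385 CPM at 0 h and 25, 24.4 and 23.1 CPM at 48 h (log2 change 6.26 ± 0.109 SE, adjusted p = 1.62e-20). MKI67, which encodes the proliferation antigen Ki-67, a protein that coats mitotic chromosomes (chr10:128096659-128126423), read 1.65, 1.73 and 1.84 CPM at 0 h and 98.6, 102 and 92.1 CPM at 48 h (log2 change 5.81 ± 0.0944 SE, adjusted p = 1.59e-20). Both were under 2 CPM in every 0 h library, and the absence of overlap was a condition of the ranking. UBE2C, the ubiquitin-conjugating enzyme of the anaphase-promoting complex, read 0.261, 0.352 and 0.374 CPM at 0 h and 21.5, 21.8 and 20.3 CPM at 48 h (log2 change 6.01 ± 0.12 SE, adjusted p = 8.09e-20). CDC20, which activates that complex, read 0.922, 0.868 and 1.29 CPM at 0 h and 56.9, 55.7 and 52.8 CPM at 48 h (log2 change 5.75 ± 0.112 SE, adjusted p = 7.13e-20). The remaining genes of division in this set, PIF1 (a DNA helicase), TROAP, KIF2C and KIF14 (mitotic kinesins), DLGAP5 (a spindle protein) and BIRC5 (survivin, of the chromosomal passenger complex), had mean levels of 0.135 to 0.527 CPM at 0 h and 13.4 to 26.1 CPM at 48 h. Their log2 changes ran from 5.63 to 6.62.

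CA9 and CR2 headed the list without belonging to the cell cycle. CA9 encodes carbonic anhydrase IX, a cell surface enzyme known as a hypoxia marker (chr9:35673928-35681159). It read 0.151, 0.249 and 0.169 CPM at 0 h and 35.7, 36 and 32.3 CPM at 48 h (log2 change 7.50 ± 0.514 SE, adjusted p = 8.21e-11). CR2, complement receptor 2, is best known from B cells, and it read 0.0928, 0.204 and 0.129 CPM at 0 h and 18.6, 19.2 and 17.5 CPM at 48 h (log2 change 7.01 ± 0.391 SE, adjusted p = 2.65e-12). For both genes every 48 h value lay far above every 0 h value.

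By the same rule the 12 largest falls included KRT10, FBLN5, MMP7, ABI3BP, SLC2A14, NALCN, KRT16, KRT16P3, NID1, MME and C5AR2. KRT10, the keratin of cells that leave the basal layer of stratified epithelium (chr17:40818117-40822614), read 5722, 6316 and 5811 CPM at 0 h and 101, 96.7 and 106 CPM at 48 h (log2 change -5.88 ± 0.118 SE, adjusted p = 8.09e-20). KRT16, a keratin of stressed and wounded epithelium (chr17:41609778-41612767), read 3162, 3243 and 3062 CPM at 0 h and 146, 132 and 145 CPM at 48 h (log2 change -4.48 ± 0.109 SE, adjusted p = 1.86e-18). The replicates of each group lay close together and the groups were far apart. KRT16P3 is a near-copy of KRT16 whose reads could be shared with it, and it read 24.7, 29.9 and 20.6 CPM at 0 h and 1.1, 1.79 and 2.15 CPM at 48 h.

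The named falls also held genes of the extracellular matrix. FBLN5, an elastic fibre protein (chr14:91869411-91947694), read 49, 52.6 and 50.1 CPM at 0 h and 1.37, 1.41 and 1.68 CPM at 48 h (log2 change -5.09 ± 0.145 SE, adjusted p = 2.75e-17). ABI3BP, a secreted matrix protein, read 15.1, 15.2 and 14.8 CPM at 0 h and 0.311, 0.528 and 0.62 CPM at 48 h (log2 change -4.95 ± 0.379 SE, adjusted p = 5.21e-10). NID1, nidogen of the basement membrane, read 32.3, 30.9 and 28 CPM at 0 h and 2.39, 2.32 and 2.35 CPM at 48 h (log2 change -3.69 ± 0.249 SE, adjusted p = 6.65e-11). All 3 dropped by more than 10-fold. MMP7, matrilysin, had log2 change -5.08 (means 13.9 to 0.413 CPM). The peptidase MME (CD10), a myoepithelial surface marker, had log2 change -3.68 (means 271 to 21.1 CPM). The sodium leak channel NALCN and the complement receptor C5AR2 had log2 changes of -4.59 and -3.62. SLC2A14, a glucose transporter nearly identical to SLC2A3, went from 41.7 to 1.58 CPM, and its reads could be shared with that gene.

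By the difference in CPM, the largest rises were of ACTG1, S100A2, KRT15, NPM1, GAPDH and FTH1, and the largest falls of KRT10, KRT16, KRT5, TGFBI, GLUL and EEF1A1. ACTG1, cytoplasmic gamma actin, read 534, 563 and 578 CPM at 0 h and 2321, 2316 and 2203 CPM at 48 h (log2 change 2.03 ± 0.109 SE, adjusted p = 1.3e-12). TGFBI, a secreted adhesion protein induced by TGF-beta, read 11420, 11610 and 11700 CPM at 0 h and 3862, 3693 and 4178 CPM at 48 h (log2 change -1.57 ± 0.0589 SE, adjusted p = 2.98e-15). GLUL, glutamine synthetase, read 4684, 4897 and 4759 CPM at 0 h and 2321, 2299 and 2300 CPM at 48 h (log2 change -1.05 ± 0.0541 SE, adjusted p = 6.82e-13). Each of these groups was tight, and the absence of overlap was a condition of the rule that picked the genes. The nucleolar chaperone NPM1 went from 1467 to 2428 CPM (log2 change 0.73, adjusted p = 2.8e-09) and ferritin heavy chain FTH1 from 6064 to 8456 CPM (log2 change 0.48, adjusted p = 0.000106). The elongation factor EEF1A1 went from 19960 to 14640 CPM (log2 change -0.45, adjusted p = 1.98e-05). ACTG1, NPM1, GAPDH, FTH1 and EEF1A1 have processed pseudogenes that could take part of their reads.

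Division genes rose as a block. Of 49 genes of G2 and mitosis tested, all 49 rose (median log2 change 3.92, against 0.03 for all genes). Their values did not overlap in 49 of 49, against 62.3% of all genes. The summed level of the list was 321 to 328 CPM at 0 h and 1797 to 1897 CPM at 48 h. Of 47 genes of S phase and DNA replication, 40 rose, 4 fell and 3 did not pass the threshold (median log2 change 0.94). TK1, the thymidine kinase made in S phase, read 0.261, 0.3 and 0.216 CPM at 0 h and 11.4, 12 and 11.7 CPM at 48 h (log2 change 5.49 ± 0.131 SE, adjusted p = 1.51e-18). CDC45, part of the replicative helicase, read 0.261, 0.204 and 0.199 CPM at 0 h and 5.62, 5.79 and 5.35 CPM at 48 h (log2 change 4.65 ± 0.0929 SE, adjusted p = 8.09e-20). RRM2, the regulated subunit of ribonucleotide reductase, read 0.696, 0.868 and 1.03 CPM at 0 h and 22.4, 19.8 and 19.9 CPM at 48 h (log2 change 4.58 ± 0.116 SE, adjusted p = 3.57e-18). All 3 were low in every 0 h library and did not overlap with 48 h.

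The S-phase list was not uniform. GINS3, a subunit of the replicative helicase, fell from 12.9 to 6.87 CPM (log2 change -0.90 ± 0.0713 SE, adjusted p = 8.59e-10), and CCNE1, cyclin E1, from 7.12 to 5.55 CPM (log2 change -0.36 ± 0.0669 SE, adjusted p = 0.000136). MCM4, also of the helicase, fell from 57.9 to 48.8 CPM (log2 change -0.25 ± 0.0521 SE, adjusted p = 0.000511), but this call was lost with library size alone. The polymerase genes POLE and POLA1 did not pass the threshold, with log2 changes of -0.04 and 0.12 at 0 h means of 71.6 and 12.3 CPM. Those 5 genes had 0 h means of 7.12 to 71.6 CPM. POLA1 was called higher with library size alone and with the GC trend removed. The rises of CDT1 and DTL, a licensing factor and part of the ubiquitin ligase that destroys it, were from 1.88 to 27.4 CPM (log2 change 3.86, adjusted p = 3.1e-17) and from 1.18 to 14.2 CPM (log2 change 3.60, adjusted p = 3.51e-18).

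Recombination and Fanconi repair genes followed. Of 20 tested, 19 rose, 0 fell and 1 did not pass the threshold (median log2 change 1.99). EXO1, an end-resecting nuclease, read 0.383, 0.533 and 0.561 CPM at 0 h and 11.9, 11 and 10.4 CPM at 48 h (log2 change 4.50 ± 0.0911 SE, adjusted p = 9.06e-20). POLQ, the polymerase of end joining by microhomology, had log2 change 3.97 and RAD54L, a DNA translocase of recombination, 3.05. PALB2, which brings BRCA2 to breaks, did not pass, at 23.4, 25.8 and 24.4 CPM at 0 h and 23.4, 23.3 and 22.8 CPM at 48 h.

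Regulators of the G1 phase were mixed. Of 21 genes, 13 rose, 3 fell and 5 did not pass the threshold (median log2 change 0.26). CDKN3, a phosphatase that acts on cyclin-dependent kinases, rose from 0.529 to 7.24 CPM (log2 change 3.77, adjusted p = 1.98e-14). E2F7, a repressor of the E2F family, rose from 1.7 to 9.79 CPM (log2 change 2.53, adjusted p = 1.7e-11), and E2F5 from 3.79 to 8.27 CPM (log2 change 1.12, adjusted p = 9.86e-10). The inhibitor gene CDKN1C (p57) read 122, 100.5 and 106 CPM at 0 h and 66.3, 60.9 and 53.4 CPM at 48 h (log2 change -0.86 ± 0.0985 SE, adjusted p = 2.64e-07). CDKN1A (p21) read 239, 232 and 232 CPM at 0 h and 199, 193 and 192 CPM at 48 h (log2 change -0.27 ± 0.056 SE, adjusted p = 0.000485), a call lost with library size alone. RBL2 (p130) had log2 change -0.27 (adjusted p = 0.0167), lost with library size alone and without MYC-ER 0 h replicate 2, and RB1 did not pass (-0.20). RB1 was called lower with only the groups compared in the fit. Cyclin D1, CCND1, rose from 28.4 to 41.2 CPM (log2 change 0.54, adjusted p = 9.56e-06).

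The promoters of these groups are shown because each list has a sequence known to serve it. Promoters were taken from RefSeq (GRCh38.p14), 250 bases before to 50 after a gene's start, and searched on both strands. TTTGAA is the CHR element of late cell cycle genes, read by the DREAM and MuvB complexes, and CCAAT is the box read by NF-Y. TTTGGCGC and TTTCCCGC are 2 forms of the E2F site, CACGTG is the E-box read by MYC and MAX, and ACGTG is the core of the hypoxia response element and lies within CACGTG. The promoters shown are of genes that rose, belong to a list and hold its element, printed 5′ to 3′ on the gene's strand. Capitals mark the matches, and a match on the opposite strand appears as its reverse complement. MKI67 (chr10:128126374-128126673, minus strand) and CDC20 (chr1:43358731-43359030, plus strand) hold TTTGAA. MKI67 has it on the gene's own strand at both matches, and CDC20 has 1 match on each strand.
MKI67: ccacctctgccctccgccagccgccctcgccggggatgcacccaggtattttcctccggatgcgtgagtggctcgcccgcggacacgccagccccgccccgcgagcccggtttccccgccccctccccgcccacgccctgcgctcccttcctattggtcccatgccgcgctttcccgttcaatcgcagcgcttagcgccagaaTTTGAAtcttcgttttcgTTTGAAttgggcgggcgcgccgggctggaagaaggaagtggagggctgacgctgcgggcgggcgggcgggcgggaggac
CDC20: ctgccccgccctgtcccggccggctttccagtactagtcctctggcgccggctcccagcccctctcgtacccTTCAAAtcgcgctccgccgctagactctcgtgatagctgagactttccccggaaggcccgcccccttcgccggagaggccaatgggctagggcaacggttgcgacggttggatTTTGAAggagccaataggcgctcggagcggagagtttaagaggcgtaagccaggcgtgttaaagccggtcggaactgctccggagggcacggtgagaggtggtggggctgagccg
CDT1 (chr16:88803539-88803838, plus strand) and DTL (chr1:212035498-212035797, plus strand) have an E2F form within 50 bases of the start.
CDT1: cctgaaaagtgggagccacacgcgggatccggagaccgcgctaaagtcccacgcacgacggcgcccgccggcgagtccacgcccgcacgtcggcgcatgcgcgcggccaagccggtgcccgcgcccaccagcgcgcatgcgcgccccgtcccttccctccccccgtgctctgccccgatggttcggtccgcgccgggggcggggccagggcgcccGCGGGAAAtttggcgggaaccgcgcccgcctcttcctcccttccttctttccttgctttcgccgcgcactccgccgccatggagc
DTL: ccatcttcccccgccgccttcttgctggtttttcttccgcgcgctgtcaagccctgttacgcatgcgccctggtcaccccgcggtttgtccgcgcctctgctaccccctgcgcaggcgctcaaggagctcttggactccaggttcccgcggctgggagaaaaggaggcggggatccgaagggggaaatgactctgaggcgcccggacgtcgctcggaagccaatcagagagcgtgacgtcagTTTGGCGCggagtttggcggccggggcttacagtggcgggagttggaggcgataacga
FBL (chr19:39846330-39846629, minus strand) and NME1 (chr17:51153309-51153608, plus strand), from the list of MYC growth targets described below, have CACGTG just after the start.
FBL: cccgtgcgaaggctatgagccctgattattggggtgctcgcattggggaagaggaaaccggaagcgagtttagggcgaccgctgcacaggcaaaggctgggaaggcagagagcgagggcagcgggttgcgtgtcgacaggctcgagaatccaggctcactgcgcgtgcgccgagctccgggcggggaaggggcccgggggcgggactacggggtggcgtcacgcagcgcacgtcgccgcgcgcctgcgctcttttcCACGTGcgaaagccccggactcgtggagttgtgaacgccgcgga
NME1: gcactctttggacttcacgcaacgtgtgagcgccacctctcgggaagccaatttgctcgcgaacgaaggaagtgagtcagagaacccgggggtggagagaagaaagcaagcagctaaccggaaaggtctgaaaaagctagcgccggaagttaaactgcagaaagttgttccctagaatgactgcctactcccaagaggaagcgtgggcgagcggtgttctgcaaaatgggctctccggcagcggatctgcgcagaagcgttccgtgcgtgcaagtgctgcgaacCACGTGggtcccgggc
CA9 (chr9:35673678-35673977, plus strand) and P4HA1 (chr10:73096817-73097116, minus strand), from the hypoxia list, have ACGTG before the start (P4HA1, a collagen prolyl hydroxylase, had log2 change 0.67, adjusted p = 1.56e-09).
CA9: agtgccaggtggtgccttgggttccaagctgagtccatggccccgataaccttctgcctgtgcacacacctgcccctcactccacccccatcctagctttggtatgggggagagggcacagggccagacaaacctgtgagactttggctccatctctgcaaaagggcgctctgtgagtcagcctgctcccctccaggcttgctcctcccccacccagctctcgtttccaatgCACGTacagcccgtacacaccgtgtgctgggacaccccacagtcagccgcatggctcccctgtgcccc
P4HA1: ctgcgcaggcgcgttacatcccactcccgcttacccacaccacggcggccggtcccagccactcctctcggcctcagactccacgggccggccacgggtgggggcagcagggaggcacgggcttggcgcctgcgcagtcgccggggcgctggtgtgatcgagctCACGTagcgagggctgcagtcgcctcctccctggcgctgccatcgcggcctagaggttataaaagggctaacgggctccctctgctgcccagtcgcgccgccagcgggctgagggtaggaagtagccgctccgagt

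The lists differed in which elements their promoters held. TTTGAA was found in 29 of 43 (67.4%) promoters of the G2 and mitosis list and in 1 of 40 (2.5%) of the S-phase list, beside 10.4% of the 13254 promoters of genes tested and 15.2% of all 35116 promoters in the table. CCAAT was in 34 of 43 (79.1%) of the G2 list and 24 of 40 (60%) of the S-phase list, beside 36.1% of those tested (34.6% of all). The E2F forms were in 20 of 40 (50%) of the S-phase list and 2 of 43 (4.65%) of the G2 list, beside 3.4% (2.27% of all). CACGTG was in 20 of 43 (46.5%) of the MYC growth targets, beside 9.6% (7.26% of all). ACGTG was in 11 of 21 (52.4%) of the hypoxia list and in 26 of 43 (60.5%) of the growth targets, beside 25.7% (21.4% of all). Across all genes, TTTGAA was in 83 of 397 (20.9%) promoters of the genes at least 8-fold higher at 48 h and 58 of 339 (17.1%) of those of them in none of the 35 lists. It was in 138 of 976 (14.1%) of genes 2-fold to 8-fold higher, 645 of 6299 (10.2%) of genes not called and 61 of 383 (15.9%) of genes at least 2-fold lower. CACGTG was in 32 of 397 (8.06%) of the genes at least 8-fold higher and 610 of 6299 (9.68%) of genes not called. A match is a run of letters and no test was made of these shares.

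**Figure D2:**
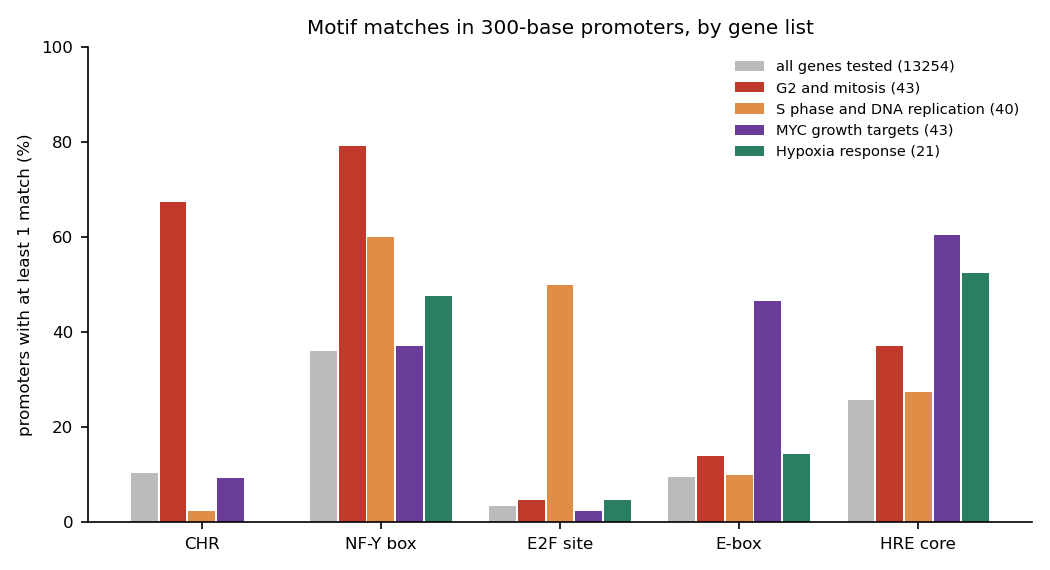
Share of promoters with at least 1 match (y axis, %) for 5 elements (CHR, NF-Y box, 2 E2F forms, E-box and core of the hypoxia response element), with 1 bar for all genes tested and 1 for each of 4 lists; the number of promoters is in the legend. The G2 and mitosis list stands at 67.4% for the CHR and the S-phase list at 2.5%, with the order turned for the E2F site (4.65% and 50%).

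Genes of ribosome assembly and growth rose less. Of 50 MYC growth targets, 24 rose, 9 fell and 17 did not pass the threshold (median log2 change 0.14). HNRNPA1, a splicing regulator, read 592, 682 and 641 CPM at 0 h and 1600, 1545 and 1510 CPM at 48 h (log2 change 1.28 ± 0.0615 SE, adjusted p = 2.03e-13). FBL, the methyltransferase fibrillarin of the nucleolus, read 96.8, 115 and 112 CPM at 0 h and 196, 197 and 193 CPM at 48 h (log2 change 0.86 ± 0.0963 SE, adjusted p = 2e-07). ODC1, the first enzyme of polyamine synthesis, read 60.5, 65.2 and 65.7 CPM at 0 h and 117, 116 and 112 CPM at 48 h (log2 change 0.85 ± 0.0593 SE, adjusted p = 1.13e-10). These 3 rose by under 3-fold, as did NME1, a nucleoside diphosphate kinase (log2 change 0.76, adjusted p = 1.2e-06). PPAN, of large subunit assembly, fell from 48.5 to 26.4 CPM (log2 change -0.88, adjusted p = 0.000102), GRWD1 from 61 to 43.2 CPM (log2 change -0.50, adjusted p = 2.8e-06) and the transferrin receptor TFRC from 356 to 266 CPM (log2 change -0.42, adjusted p = 0.00241). The TFRC call was lost with library size alone. The amino acid transporter SLC7A5 did not pass, at 1842, 1856 and 1849 CPM at 0 h and 1765, 1740 and 1756 CPM at 48 h.

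Cytosolic ribosomal protein genes moved little. Of 50, 1 rose, 3 fell and 46 did not pass the threshold (median log2 change -0.05). RPS7 rose from 722 to 940.2 CPM (log2 change 0.38, adjusted p = 0.00121), RPLP1 fell from 1752 to 1192 CPM (log2 change -0.56, adjusted p = 9.35e-05) and RPS13 fell from 566 to 438 CPM (log2 change -0.37, adjusted p = 0.000797). RPL4 was at the threshold (adjusted p = 0.039) and its call was lost in 10 of the alternative fits. The direction of the list turned with the scaling: with library size alone 16 were higher, 2 lower and the median was 0.11. Ribosomal protein genes have many processed pseudogenes, and their reads could be shared. In parental cells the same list had 0 higher and 45 lower, against 20.1% of all genes lower. The lower count was 20 without parental 0 h replicate 3 and 6 with only the parental 0 h and 48 h libraries in the fit. The summed level of the list was 42450 to 61220 CPM in parental cells at 0 h and 39570 to 43140 CPM at 48 h, and these ranges overlapped.

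The transcripts of the mitochondrial genome, which encode subunits of the respiratory chain, were lower at 48 h. Of 13, 0 rose, 10 fell and 3 did not pass the threshold (median log2 change -0.64). All 13 had groups that did not overlap, against 62.3% of all genes. MT-ND1 read 2440, 2560 and 2649 CPM at 0 h and 1237, 1239 and 1255 CPM at 48 h (log2 change -1.04 ± 0.175 SE, adjusted p = 4.54e-05). MT-ND2 had log2 change -0.79 and MT-ND3 -0.77. With library size alone 7 of the 13 passed, all lower. The number of mitochondrial genomes per cell was not measured, and the part that RNA quality has in this share was not tested.

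Sterol and fatty acid synthesis rose broadly. Of 31 genes, 29 rose, 0 fell and 2 did not pass the threshold (median log2 change 1.03). INSIG1, the sterol sensor that holds SREBP in the endoplasmic reticulum and is itself an SREBP target, read 25.2, 25.1 and 24.9 CPM at 0 h and 113, 114 and 107 CPM at 48 h (log2 change 2.15 ± 0.0653 SE, adjusted p = 8.03e-17). ACAT2, which makes the acetoacetyl-CoA that enters the sterol pathway, read 17.3, 19.1 and 19.3 CPM at 0 h and 86.2, 82.4 and 78.7 CPM at 48 h (log2 change 2.15 ± 0.0715 SE, adjusted p = 4.01e-16). FADS2, a fatty acid desaturase, read 23.5, 26.4 and 25.5 CPM at 0 h and 108, 105 and 99.2 CPM at 48 h (log2 change 2.05 ± 0.081 SE, adjusted p = 7.06e-15). None of the 3 overlapped between groups. PMVK, phosphomevalonate kinase of the sterol pathway, did not pass, at 46.8, 48.3 and 49.4 CPM at 0 h and 54.9, 53.6 and 52.4 CPM at 48 h (log2 change 0.15). PMVK was called higher with library size alone, with the GC trend removed and with only the groups compared in the fit. Parental cells had 21 higher and 5 lower on this list, against 20.4% higher and 20.1% lower of all genes. With only the parental libraries of the 2 times in the fit, 13 were higher and 1 lower. The starting levels differed, with a mean summed level at 0 h of 5801 CPM in MYC-ER and 10390 CPM in parental cells. In MYC-ER cells at 48 h the sum was 9153 CPM. Of the 31, 26 at 0 h and 20 at 48 h had a MYC-ER mean below the parental 0 h mean. In the fit of all libraries the interaction between line and time passed for 24 of 31 with the MYC-ER change above the parental change and 1 with it below. Over all genes it passed for 23.6% above and 21.4% below.

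Glycolysis genes were divided. Of 24, 12 rose, 4 fell and 8 did not pass the threshold (median log2 change 0.23). LDHA, lactate dehydrogenase A, read 478, 522 and 513 CPM at 0 h and 881, 852 and 827 CPM at 48 h (log2 change 0.76 ± 0.0724 SE, adjusted p = 1.73e-08). ALDOC, aldolase C, read 18.3, 18.7 and 18.8 CPM at 0 h and 54.2, 52.3 and 47.7 CPM at 48 h (log2 change 1.47 ± 0.107 SE, adjusted p = 2.22e-10), and GAPDH rose from 2527 to 3984 CPM (log2 change 0.66, adjusted p = 1.17e-05). PFKM, the muscle form of phosphofructokinase, fell from 230.3 to 146 CPM (log2 change -0.65, adjusted p = 2.95e-12), and the glucose transporter SLC2A1 from 212 to 158 CPM (log2 change -0.43, adjusted p = 0.0048). The largest fall of the list was of another glucose transporter, SLC2A3, from 4.02 to 0.793 CPM (log2 change -2.34, adjusted p = 6.1e-07). SLC2A3 was below the level that the naming rule asks for and was named after its values were seen, and its near-copy SLC2A14 could share its reads. ENO1, enolase, read 1526, 1605 and 1613 CPM at 0 h and 1503, 1471 and 1430 CPM at 48 h and did not pass (adjusted p = 0.33).

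Of 26 hypoxia response genes, 13 rose, 7 fell and 6 did not pass the threshold (median log2 change 0.22). EGLN3, an oxygen-sensing prolyl hydroxylase that HIF induces, read 0.911, 0.601 and 0.806 CPM at 0 h and 17.6, 18.5 and 16.9 CPM at 48 h (log2 change 4.52 ± 0.365 SE, adjusted p = 1.23e-09). LOXL2, a lysyl oxidase of the matrix, read 1.95, 1.8 and 2.39 CPM at 0 h and 18.7, 18.7 and 19.9 CPM at 48 h (log2 change 3.22 ± 0.246 SE, adjusted p = 4.88e-10). LOX, its relative, went the other way, at 244, 247 and 235 CPM at 0 h and 59.1, 56.1 and 59.8 CPM at 48 h (log2 change -2.05 ± 0.127 SE, adjusted p = 1.55e-11). ANGPTL4 fell from 8.69 to 4.24 CPM (log2 change -1.04, adjusted p = 0.000128) and carbonic anhydrase XII, CA12, from 701 to 399 CPM (log2 change -0.81, adjusted p = 8.52e-11). In parental cells the list had 18 higher and 1 lower, against 20.4% of all genes higher and 20.1% lower. The interaction passed for 6 of 26 with the MYC-ER change above the parental change and 10 with it below. Over all genes it passed for 23.6% above and 21.4% below. CA9, EGLN3 and LOXL2 rose in both lines, and by more in MYC-ER cells: the interaction was 5.00 for CA9 (adjusted p = 2.37e-05), 2.47 for EGLN3 (adjusted p = 0.000165) and 1.45 for LOXL2 (adjusted p = 0.00104). Without each parental 0 h library in turn these 3 interactions still passed, at 4.72 to 5.22 for CA9, 2.21 to 2.64 for EGLN3 and 1.20 to 1.57 for LOXL2.

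Amino acid supply genes under ATF4 were mixed: of 25, 12 rose, 6 fell and 7 did not pass the threshold (median log2 change 0.32). PHGDH, the first enzyme of serine synthesis, read 0.766, 0.902 and 1.24 CPM at 0 h and 24.6, 23.4 and 22 CPM at 48 h (log2 change 4.59 ± 0.171 SE, adjusted p = 2.55e-15). PSAT1, the next enzyme of the same pathway, read 136, 141 and 136 CPM at 0 h and 96.7, 95.3 and 89.4 CPM at 48 h (log2 change -0.55 ± 0.045 SE, adjusted p = 1.41e-09). So 2 enzymes of 1 pathway moved in opposite directions. The pseudokinase TRIB3 rose from 8.16 to 29.1 CPM (log2 change 1.83, adjusted p = 7.74e-13) and the secreted STC2 from 8.66 to 27.6 CPM (log2 change 1.67, adjusted p = 3.86e-14). The glycine transporter SLC6A9 fell from 9.69 to 4.05 CPM (log2 change -1.26, adjusted p = 1.94e-10), and ATF4 itself from 522 to 412 CPM (log2 change -0.34, adjusted p = 0.000298).

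Of 24 NRF2 response genes, 12 rose, 7 fell and 5 did not pass the threshold (median log2 change 0.15). ABCC3, an exporter of conjugated compounds, read 4.85, 6.12 and 5.79 CPM at 0 h and 80.6, 78.5 and 76.3 CPM at 48 h (log2 change 3.81 ± 0.0663 SE, adjusted p = 1.62e-20). Its relative ABCC2 read 450.0, 454 and 428 CPM at 0 h and 192, 183 and 201 CPM at 48 h (log2 change -1.21 ± 0.104 SE, adjusted p = 3.26e-09). The cystine transporter SLC7A11 rose from 6.48 to 15.2 CPM (log2 change 1.23, adjusted p = 1.2e-06). AKR1C1 fell from 418 to 142 CPM (log2 change -1.55, adjusted p = 2.08e-12) and AKR1C2 from 216 to 136 CPM (log2 change -0.67, adjusted p = 4.43e-07), 2 near-identical genes whose reads could be shared.

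**Figure D3:**
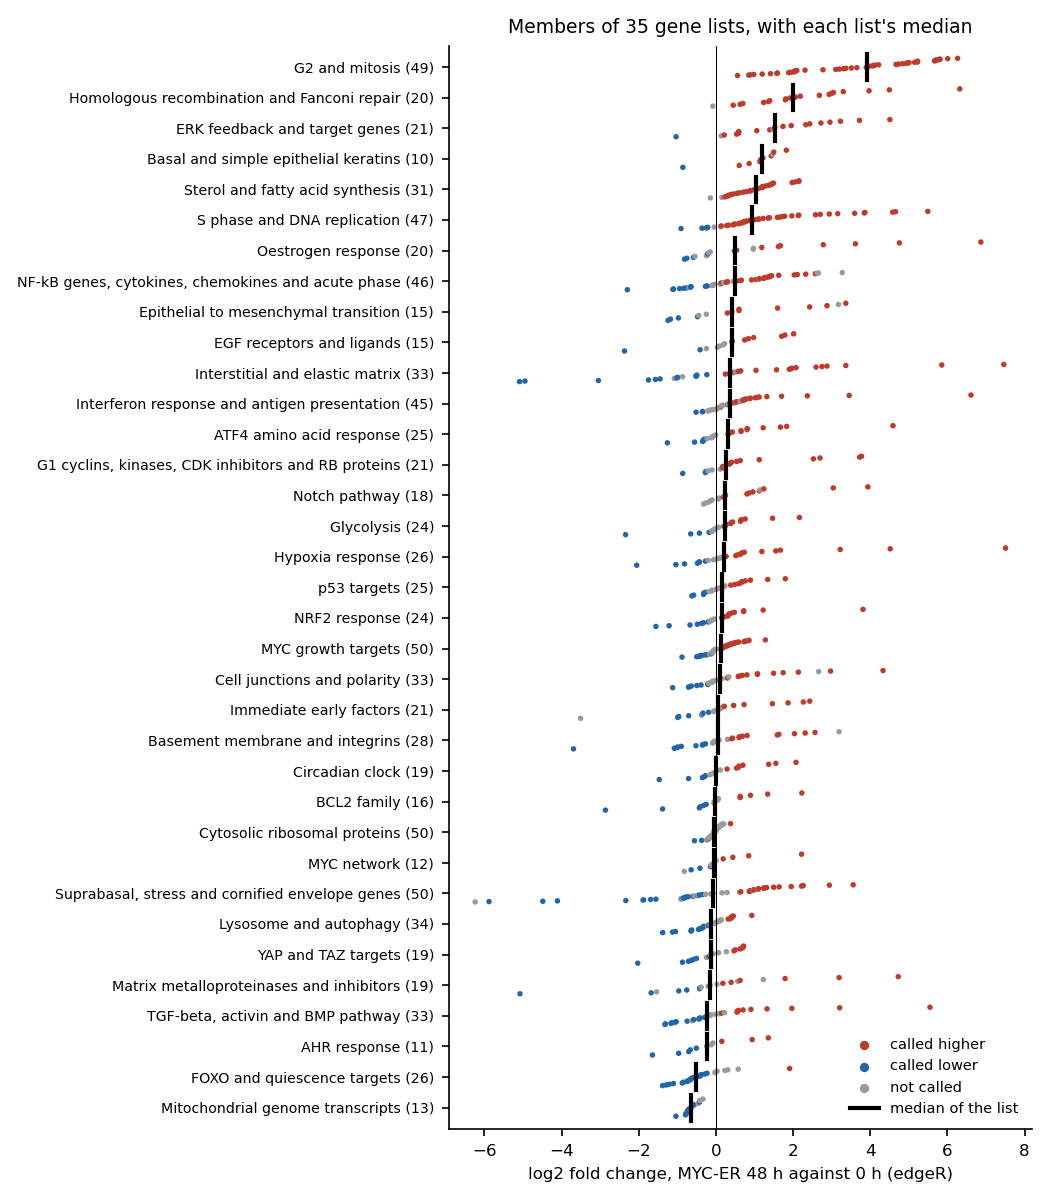
Log2 fold change of each tested member (x axis, MYC-ER 48 h against 0 h, edgeR) of the 35 gene lists (y axis, number of tested genes in brackets), coloured by its call, with a black bar at the median of the list. The G2 and mitosis list lies wholly to the right of 0 with a median of 3.92, and the lists with the lowest medians are the FOXO and quiescence targets (-0.52) and the mitochondrial genome transcripts (-0.64).

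Keratin genes of the basal and simple epithelial types mostly rose, while KRT10 and KRT16 fell as given above. Of 10 basal and simple keratins, 8 rose, 1 fell and 1 did not pass the threshold (median log2 change 1.19). KRT17, a basal and injury keratin, read 325, 313 and 331 CPM at 0 h and 1205, 1131 and 1099 CPM at 48 h (log2 change 1.82 ± 0.118 SE, adjusted p = 3.34e-11). KRT7, of simple epithelium, read 101, 103 and 108 CPM at 0 h and 292, 290.1 and 300.1 CPM at 48 h (log2 change 1.50 ± 0.0992 SE, adjusted p = 4.79e-11). KRT15, a basal keratin, rose from 814 to 1895 CPM (log2 change 1.22, adjusted p = 9.12e-10), and the hair type KRT81 from 85.8 to 232 CPM (log2 change 1.43, adjusted p = 1.31e-11). KRT5, the main basal keratin, was the 1 that fell, at 12350, 12800 and 12430 CPM at 0 h and 7184, 6819 and 6763 CPM at 48 h (log2 change -0.86 ± 0.078 SE, adjusted p = 8.37e-09). Its partner KRT14 rose from 626 to 951 CPM (log2 change 0.60, adjusted p = 5.26e-05), and the simple pair KRT8 and KRT18 from 121 to 219 CPM and 97 to 214 CPM (log2 changes 0.86 and 1.14). KRT19 was unstable between replicates, at 0.696, 2.56 and 0 CPM at 0 h and 5.97, 1.45 and 1.63 CPM at 48 h, and was not called (adjusted p = 0.114). Without MYC-ER 0 h replicate 2 its log2 change was 3.11, without MYC-ER 0 h replicate 3 it was 0.89 and without MYC-ER 48 h replicate 1 it was 0.50. KRT14, KRT16 and KRT17 share long stretches of sequence, and their reads could be shared.

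Of 50 suprabasal, stress and cornified envelope genes, 18 rose, 17 fell and 15 did not pass the threshold (median log2 change -0.09) with TMM, and the median turned to 0.07 with library size alone. KRT1, the partner of KRT10, read 78.5, 76.6 and 84.7 CPM at 0 h and 28.5, 25 and 28.2 CPM at 48 h (log2 change -1.55 ± 0.136 SE, adjusted p = 4.19e-09). GRHL3, a transcription factor of barrier formation, rose from 1.55 to 6.01 CPM (log2 change 1.95, adjusted p = 3.47e-12). The alarmin S100A7 rose from 1.68 to 5.24 CPM (log2 change 1.64, adjusted p = 0.00049) and the protease inhibitor PI3 (elafin) from 6.33 to 15.7 CPM (log2 change 1.31, adjusted p = 3.65e-07). S100A2, a calcium-binding protein of basal cells, read 464, 478 and 528 CPM at 0 h and 1501, 1474 and 1469 CPM at 48 h (log2 change 1.60 ± 0.111 SE, adjusted p = 1.03e-10).

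Junction and polarity genes were divided: of 33, 13 rose, 8 fell and 12 did not pass the threshold (median log2 change 0.12). EPCAM, an adhesion molecule of simple and progenitor epithelium, read 2.16, 1.91 and 1.73 CPM at 0 h and 38.6, 39.8 and 38.3 CPM at 48 h (log2 change 4.33 ± 0.0861 SE, adjusted p = 8.09e-20). CLDN1, claudin 1 of tight junctions, read 4.8, 4.88 and 5.75 CPM at 0 h and 39.3, 41.9 and 39.7 CPM at 48 h (log2 change 2.97 ± 0.0987 SE, adjusted p = 3.98e-16), and the connexin GJB2 rose from 2.76 to 12.1 CPM (log2 change 2.14, adjusted p = 3.41e-13). Of desmosome genes, DSG3 (desmoglein 3) fell from 987 to 454 CPM (log2 change -1.12, adjusted p = 1.31e-08) and DSP (desmoplakin) from 3081 to 1933 CPM (log2 change -0.67, adjusted p = 6.16e-06). MARVELD2, tricellulin, fell from 32.6 to 19.9 CPM (log2 change -0.71, adjusted p = 2.73e-07). Plakoglobin, JUP, which is also part of the desmosome, did not pass, at 443, 448 and 452 CPM at 0 h and 509, 496 and 491 CPM at 48 h (log2 change 0.15, adjusted p = 0.141). It was called higher with library size alone, with the GC trend removed and with only the groups compared in the fit.

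Genes of the basement membrane changed in both directions: of 28 with the integrins, 11 rose, 9 fell and 8 did not pass the threshold (median log2 change 0.06). COL4A2 read 4.99, 5.61 and 5.81 CPM at 0 h and 32.4, 33.8 and 31.1 CPM at 48 h (log2 change 2.57 ± 0.109 SE, adjusted p = 2.34e-14), and its partner chain COL4A1 rose from 3.71 to 15.2 CPM (log2 change 2.04, adjusted p = 3.41e-11). LAMA1, the alpha-1 chain of laminin, rose from 1.71 to 8.49 CPM (log2 change 2.31, adjusted p = 9.34e-16), while LAMB1, the beta-1 chain, read 1521, 1591 and 1544 CPM at 0 h and 725, 724 and 758 CPM at 48 h (log2 change -1.08 ± 0.0536 SE, adjusted p = 3.73e-13). COL7A1, of anchoring fibrils, fell from 1019 to 507 CPM (log2 change -1.01, adjusted p = 4.93e-09), and LAMA3, of the epithelial laminin 332, did not pass (-0.07). The collagen IV genes COL4A1 and COL4A2 and the nidogen gene NID1, all of this membrane, moved in opposite directions.

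Of 33 interstitial and elastic matrix genes, 18 rose, 12 fell and 3 did not pass the threshold (median log2 change 0.38). SPARC, a collagen-binding protein, read 2.4, 2.63 and 2.71 CPM at 0 h and 17.6, 18.4 and 16.1 CPM at 48 h (log2 change 2.75 ± 0.126 SE, adjusted p = 9.47e-14). THBS1, thrombospondin 1, rose from 5.53 to 23.3 CPM (log2 change 2.08, adjusted p = 7.24e-13) and LTBP2 from 3.92 to 15.3 CPM (log2 change 1.97, adjusted p = 1.78e-12). DCN, decorin, read 156, 157 and 157 CPM at 0 h and 47.4, 44.7 and 47.8 CPM at 48 h (log2 change -1.75 ± 0.0804 SE, adjusted p = 9.8e-14), and COL1A1 fell from 215 to 78.8 CPM (log2 change -1.45, adjusted p = 1.4e-12). Of 19 matrix metalloproteinases and inhibitors, 6 rose, 5 fell and 8 did not pass the threshold (median log2 change -0.15), and the median turned to 0.01 with library size alone. MMP2, gelatinase A, read 1.3, 0.992 and 1.18 CPM at 0 h and 10.7, 10.9 and 10.2 CPM at 48 h (log2 change 3.19 ± 0.159 SE, adjusted p = 3.7e-13). MMP14, which activates it, rose from 279 to 366 CPM (log2 change 0.39, adjusted p = 1.97e-05), and the inhibitor TIMP1 from 65.2 to 101 CPM (log2 change 0.63, adjusted p = 8.87e-06). MMP15 fell from 15.5 to 4.83 CPM (log2 change -1.68, adjusted p = 4.93e-11) and the inhibitor TIMP3 from 319.8 to 164 CPM (log2 change -0.96, adjusted p = 2e-13).

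Growth factor signalling genes are ordered here by role. The receptor EGFR read 614, 648 and 592 CPM at 0 h and 710.4, 699 and 697 CPM at 48 h and did not pass (log2 change 0.18, adjusted p = 0.158), and ERBB2 did not pass either (0.09). Both were called higher in the fit with only the groups compared and with library size alone. ERBB3, the neuregulin receptor, fell from 17.2 to 12.9 CPM (log2 change -0.41, adjusted p = 0.00101). Of the ligands, AREG, amphiregulin, read 5.9, 7.35 and 6.79 CPM at 0 h and 26.8, 26.7 and 27.4 CPM at 48 h (log2 change 2.01 ± 0.09 SE, adjusted p = 5.9e-14). EPGN, epigen, read 161, 172 and 155 CPM at 0 h and 32.1, 29 and 33.4 CPM at 48 h (log2 change -2.37 ± 0.0943 SE, adjusted p = 7.82e-15). These 2 EGFR ligands moved in opposite directions, each without overlap.

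HBEGF rose from 2.31 to 4.55 CPM (log2 change 0.98, adjusted p = 1.2e-07), BTC from 0.453 to 1.57 CPM (log2 change 1.79, adjusted p = 5.39e-07) and NRG1 from 0.173 to 0.567 CPM (log2 change 1.70, adjusted p = 9.98e-08). EREG was near the threshold (log2 change 0.42, adjusted p = 0.0451) and lost its call in 7 alternative fits, among them the fits without MYC-ER 0 h replicate 1, 2 or 3 and without MYC-ER 48 h replicate 2 or 3. TGFA, NRG2, NRG4 and EGF did not pass, with 48 h means of 13.4, 0.738, 2.32 and 0.111 CPM. The receptor inhibitors LRIG1 and ERRFI1 rose from 7.53 to 13.5 CPM (log2 change 0.84, adjusted p = 3.44e-07) and from 76.1 to 128 CPM (log2 change 0.75, adjusted p = 3.28e-07). In all, of 15 receptors, ligands and inhibitors, 7 rose, 2 fell and 6 did not pass the threshold (median log2 change 0.41).

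Feedback genes of the ERK pathway, which rise when the pathway is active, were higher: of 21, 18 rose, 1 fell and 2 did not pass the threshold (median log2 change 1.52). SPRY4, an inhibitor of receptor signalling, read 0.887, 0.964 and 0.753 CPM at 0 h and 7.07, 6.84 and 6.34 CPM at 48 h (log2 change 2.96 ± 0.0906 SE, adjusted p = 9.48e-17). DUSP6, the phosphatase of ERK, read 1.33, 1.37 and 1.66 CPM at 0 h and 9.04, 9.31 and 10.4 CPM at 48 h (log2 change 2.72 ± 0.108 SE, adjusted p = 7.04e-15). IER3 rose from 5.37 to 29 CPM (log2 change 2.43, adjusted p = 1.44e-13). In parental cells SPRY4 stood at 56 CPM at 0 h and DUSP6 at 245 CPM, above the MYC-ER level at 48 h in both cases. Immediate early factors were split, with 7 of 21 higher and 6 lower (median log2 change 0.06). EGR1 read 14.8, 13.5 and 13.5 CPM at 0 h and 51.6, 51.5 and 49.8 CPM at 48 h (log2 change 1.87 ± 0.0655 SE, adjusted p = 9e-16) and FOS read 26.2, 24.6 and 26.2 CPM at 0 h and 12.5, 13 and 13.3 CPM at 48 h (log2 change -0.99 ± 0.0769 SE, adjusted p = 6.49e-10). FOSL2 fell from 683 to 351 CPM (log2 change -0.96, adjusted p = 6.64e-09) and KLF4 from 38.7 to 23.8 CPM (log2 change -0.70, adjusted p = 1.72e-08).

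Targets of the FOXO factors, which act in resting cells when growth factor signalling is low, fell: of 26, 1 rose, 19 fell and 6 did not pass the threshold (median log2 change -0.52). FOXO3 itself read 358, 356 and 333 CPM at 0 h and 152, 151 and 152 CPM at 48 h (log2 change -1.21 ± 0.0909 SE, adjusted p = 4.07e-10). CCPG1 read 82.5, 82.6 and 81 CPM at 0 h and 33.5, 34.8 and 32.6 CPM at 48 h (log2 change -1.29 ± 0.0944 SE, adjusted p = 2.57e-10), and SESN1, a sestrin also under p53, fell from 115 to 74.5 CPM (log2 change -0.62, adjusted p = 3.57e-08). PIK3IP1, an inhibitor of PI3 kinase, was the 1 that rose, at 4.96, 4.79 and 4.46 CPM at 0 h and 17.3, 19.5 and 16.6 CPM at 48 h (log2 change 1.91 ± 0.0906 SE, adjusted p = 1.68e-13). In parental cells the list had 13 higher and 4 lower, against 20.4% higher and 20.1% lower of all genes. With only the parental 0 h and 48 h libraries in the fit, 3 were higher and 1 lower. The starting levels differed, with a mean summed level at 0 h of 3731 CPM in MYC-ER and 1066 CPM in parental cells. In MYC-ER cells at 48 h the sum was 2090 CPM. At 0 h and again at 48 h, 2 of the 26 had a MYC-ER mean below the parental 0 h mean. In the fit of all libraries the interaction passed for 1 of 26 with the MYC-ER change above the parental change and 20 with it below. Over all genes it passed for 23.6% above and 21.4% below.

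Of 25 p53 targets, 10 rose, 6 fell and 9 did not pass the threshold (median log2 change 0.16). PLK3, a stress kinase, read 4.42, 3.84 and 3.34 CPM at 0 h and 13.1, 13.1 and 14.2 CPM at 48 h (log2 change 1.80 ± 0.0787 SE, adjusted p = 4.03e-14). PERP, a desmosome protein and p53 effector, fell from 2115 to 1418 CPM (log2 change -0.58, adjusted p = 6.98e-08).

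The BCL2 family sets the threshold for apoptosis at the mitochondrion, and of its 16 genes, 5 rose, 6 fell and 5 did not pass the threshold (median log2 change -0.02). With library size alone 7 rose, 5 fell and the median turned to 0.12. Among the guardians, BCL2 read 0.244, 0.199 and 0.216 CPM at 0 h and 1.23, 0.885 and 0.966 CPM at 48 h (log2 change 2.23 ± 0.16 SE, adjusted p = 1.79e-10). BCL2L1 (BCL-XL) fell from 60.4 to 48.4 CPM (log2 change -0.32, adjusted p = 0.000298). MCL1 did not pass, at 560.3, 563 and 558 CPM at 0 h and 588, 589 and 561 CPM at 48 h, nor did BCL2L2 (log2 change -0.05), and no read of BCL2A1 was counted in any of the 6 (count of 0, with a limit of 0.0166 to 0.0219 CPM a library from 3 counts).

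Of the effectors, BAX read 39.4, 38 and 39.6 CPM at 0 h and 61.9, 59.4 and 59.7 CPM at 48 h (log2 change 0.63 ± 0.0852 SE, adjusted p = 2.75e-06), BAK1 did not pass (log2 change 0.07) and BOK was near the threshold (-0.25, adjusted p = 0.0158). The BOK call was lost with library size alone, with upper quartile scaling and without MYC-ER 0 h replicate 1 or MYC-ER 48 h replicate 3. Of the BH3-only activators and sensitisers, BMF read 39.2, 38.8 and 41.7 CPM at 0 h and 15.6, 15.3 and 15.1 CPM at 48 h (log2 change -1.38 ± 0.115 SE, adjusted p = 2.05e-09). BCL2L11 (BIM) fell from 65.3 to 49.3 CPM (log2 change -0.41, adjusted p = 6.65e-05), BID from 20.9 to 15.5 CPM (log2 change -0.43, adjusted p = 0.000614) and HRK from 1.84 to 0.253 CPM (log2 change -2.86, adjusted p = 4.16e-06). PMAIP1 (NOXA) rose from 2.91 to 7.37 CPM (log2 change 1.34, adjusted p = 1.3e-09), BBC3 (PUMA) from 9.91 to 18.4 CPM (log2 change 0.90, adjusted p = 5.97e-07) and BIK from 7.82 to 12.1 CPM (log2 change 0.63, adjusted p = 7.15e-05), while BAD did not pass (-0.05). Members that favour and members that oppose cell death were thus found in both directions.

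Interferon response and antigen presentation genes rose more often than they fell: of 45, 22 rose, 3 fell and 20 did not pass the threshold (median log2 change 0.36). IFITM2 read 23.1, 24.3 and 24.7 CPM at 0 h and 77.5, 79.3 and 77.9 CPM at 48 h (log2 change 1.70 ± 0.1 SE, adjusted p = 6.61e-12), and its near-copies could share its reads. NLRC5, the activator of class I genes, rose from 11.7 to 29.3 CPM (log2 change 1.32, adjusted p = 6.59e-12) and OAS3, which senses double-stranded RNA, from 56.8 to 124 CPM (log2 change 1.12, adjusted p = 2.65e-11). STAT2 fell from 95 to 74.5 CPM (log2 change -0.35, adjusted p = 0.000392), a call lost with library size alone, and the peptide transporter TAP2 from 108 to 75.7 CPM (log2 change -0.51, adjusted p = 1.55e-07). HLA-E did not pass (log2 change 0.02).

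Of 46 NF-kB genes, cytokines, chemokines and acute phase genes, 22 rose, 10 fell and 14 did not pass the threshold (median log2 change 0.49). LIF, a cytokine of the IL-6 family, read 1.83, 1.59 and 1.89 CPM at 0 h and 8.78, 8.93 and 8.95 CPM at 48 h (log2 change 2.33 ± 0.128 SE, adjusted p = 2e-12). The IL-1 antagonist IL1RN rose from 4.31 to 11.3 CPM (log2 change 1.39, adjusted p = 8.8e-11) and CSF3 from 3.42 to 8.3 CPM (log2 change 1.28, adjusted p = 6.38e-10). CXCL14, a chemokine, read 67.3, 58.3 and 58 CPM at 0 h and 12.4, 12.7 and 12.4 CPM at 48 h (log2 change -2.29 ± 0.146 SE, adjusted p = 2.5e-11). The complement protease C1S fell from 24.9 to 11.5 CPM (log2 change -1.11, adjusted p = 1.36e-06) and the acute phase gene SAA1 from 682 to 319 CPM (log2 change -1.10, adjusted p = 1.78e-09), whose near-copy SAA2 could share its reads. TNFAIP3, the feedback inhibitor of NF-kB, did not pass, at 206, 200.4 and 198 CPM at 0 h and 217, 212 and 227 CPM at 48 h. TNFAIP3 was called higher with library size alone, with upper quartile scaling, with the GC trend removed and with only the groups compared in the fit.

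Genes used to follow epithelial to mesenchymal transition moved both ways: of 15, 8 rose, 4 fell and 3 did not pass the threshold (median log2 change 0.41). VIM, vimentin, read 159.5, 165 and 168 CPM at 0 h and 908, 900.5 and 844 CPM at 48 h (log2 change 2.43 ± 0.122 SE, adjusted p = 4.36e-13). The transcription factors SNAI2 (slug), ZEB2 and TWIST1 fell, SNAI2 at 203, 206 and 206 CPM at 0 h and 89, 90.8 and 92 CPM at 48 h (log2 change -1.18 ± 0.0409 SE, adjusted p = 8.1e-16), ZEB2 from 35.9 to 18.3 CPM (log2 change -0.97, adjusted p = 7.52e-07) and TWIST1 from 23.6 to 17 CPM (log2 change -0.47, adjusted p = 9.73e-06). TWIST2 rose from 8.44 to 12.8 CPM (log2 change 0.60, adjusted p = 7.68e-05), as did the epithelial splicing regulator ESRP2 (log2 change 0.60, adjusted p = 7.09e-12). A mesenchymal filament gene thus rose, while of the named transcription factors 3 fell and TWIST2 rose.

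Of 18 Notch pathway genes, 9 rose, 0 fell and 9 did not pass the threshold (median log2 change 0.24). NOTCH3 rose from 6.75 to 13.1 CPM (log2 change 0.96, adjusted p = 7.95e-08), and the HES genes, which encode repressors downstream of Notch, rose too, HES1 from 6.33 to 11.1 CPM (log2 change 0.80, adjusted p = 3.68e-08) and HES2 from 15.1 to 27.5 CPM (log2 change 0.86, adjusted p = 2.42e-11). Of 33 TGF-beta, activin and BMP genes, 11 rose, 15 fell and 7 did not pass the threshold (median log2 change -0.23). With library size alone 12 were higher and 10 lower, with a median of -0.07. The co-receptor TGFBR3 read 141, 147 and 135 CPM at 0 h and 57.1, 57.5 and 56 CPM at 48 h (log2 change -1.31 ± 0.134 SE, adjusted p = 5.28e-08). ATOH8 and SMAD6, both induced by BMP signalling, fell from 58.1 to 23.3 CPM (log2 change -1.32, adjusted p = 6.36e-08) and from 13.5 to 6.02 CPM (log2 change -1.16, adjusted p = 5.01e-09). SKIL, a repressor of SMAD, rose from 9.84 to 18.4 CPM (log2 change 0.91, adjusted p = 2.64e-05). Of 19 YAP and TAZ targets, 6 rose, 8 fell and 5 did not pass the threshold (median log2 change -0.14). With library size alone 7 were higher and 6 lower, and the median turned to 0.03. CCN1 (CYR61) read 21.3, 18 and 19 CPM at 0 h and 5.42, 4.4 and 4.51 CPM at 48 h (log2 change -2.02 ± 0.082 SE, adjusted p = 1.04e-14), and LATS2, a kinase that restrains YAP, fell from 41.8 to 22.9 CPM (log2 change -0.87, adjusted p = 7.93e-07). AXL rose from 46.1 to 74.5 CPM (log2 change 0.69, adjusted p = 1.71e-06) and tissue factor, F3, from 4.15 to 6.74 CPM (log2 change 0.70, adjusted p = 1.27e-05).

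More lysosome and autophagy genes fell than rose, with 8 of 34 higher and 15 lower (median -0.12). With library size alone the counts were 15 and 12 and the median turned to 0.04. GPNMB, a lysosomal membrane protein, read 1021, 1033 and 1028 CPM at 0 h and 392, 395 and 399 CPM at 48 h (log2 change -1.38 ± 0.102 SE, adjusted p = 3.18e-10). WIPI1, of the early autophagosome, fell from 17.4 to 8 CPM (log2 change -1.12, adjusted p = 2.27e-08) and the protease CTSH from 32.3 to 15.6 CPM (log2 change -1.05, adjusted p = 7.5e-10), while HEXA rose from 56.5 to 77.3 CPM (log2 change 0.45, adjusted p = 1.87e-09). Of 11 aryl hydrocarbon receptor genes, 3 rose, 5 fell and 3 did not pass the threshold (median log2 change -0.23). CYP1B1, the monooxygenase of that response, read 44.8, 52.7 and 48.1 CPM at 0 h and 13.3, 12.4 and 21 CPM at 48 h (log2 change -1.64 ± 0.2 SE, adjusted p = 6.36e-07), and ALDH3A1 rose from 14.1 to 27.1 CPM (log2 change 0.94, adjusted p = 7.19e-08).

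4-OHT binds oestrogen receptors, and the fusion carries a receptor domain, so oestrogen response genes were listed: of 20, 9 rose, 4 fell and 7 did not pass the threshold (median log2 change 0.51). SERPINA1 rose from 11.3 to 34.8 CPM (log2 change 1.62, adjusted p = 7.92e-13) and SIAH2 fell from 42.1 to 25 CPM (log2 change -0.75, adjusted p = 7.91e-09). In parental cells, given 4-OHT for the same time, 4 higher and 2 lower of the 20 were called, against 20.4% higher and 20.1% lower of all genes. Of 19 circadian clock genes, 8 rose, 5 fell and 6 did not pass the threshold (median log2 change 0.01). The repressors BHLHE40 and BHLHE41 rose, BHLHE40 at 26.6, 24.4 and 24.9 CPM at 0 h and 73.7, 73.5 and 75.4 CPM at 48 h (log2 change 1.55 ± 0.0815 SE, adjusted p = 9.27e-13) and BHLHE41 from 4.35 to 18.3 CPM (log2 change 2.08, adjusted p = 5.74e-12). NPAS2, the relative of CLOCK, fell from 16.3 to 5.88 CPM (log2 change -1.47, adjusted p = 1.05e-11), as did CIART (log2 change -0.71, adjusted p = 1.58e-06).

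The proteins that share MAX with MYC, and the MLX branch beside them, were read gene by gene. Of 12 genes, 4 rose, 3 fell and 5 did not pass the threshold (median log2 change -0.05). MXD3, of the MXD repressors and expressed in S phase, read 5.01, 5.08 and 5.27 CPM at 0 h and 9.99, 8.7 and 8.99 CPM at 48 h (log2 change 0.85 ± 0.0981 SE, adjusted p = 2.93e-07). MNT, the broadly expressed repressor, read 34, 32.5 and 31.7 CPM at 0 h and 42.9, 43.1 and 47 CPM at 48 h (log2 change 0.44 ± 0.0571 SE, adjusted p = 1.58e-06). MXD1, MXD4, MXI1 and MGA did not pass, with log2 changes of -0.07, -0.13, 0.01 and -0.04. MLXIPL (ChREBP), a glucose sensor, read 1.71, 1.33 and 1.35 CPM at 0 h and 7.09, 7.07 and 6.26 CPM at 48 h (log2 change 2.22 ± 0.216 SE, adjusted p = 2.36e-08). MLXIP rose and MLX fell by small amounts (log2 changes 0.19 and -0.14, adjusted p = 0.0157 and 0.0278). MLX reversed to 0.02 with library size alone and MLX and MLXIP both lost their calls without MYC-ER 0 h replicate 2 or 3; MLX lost its call also without MYC-ER 48 h replicate 2 or 3. MYCL read 1, 1.13 and 1.14 CPM at 0 h and 0.548, 0.595 and 0.715 CPM at 48 h and did not pass (log2 change -0.82, adjusted p = 0.0509). It was called lower by DESeq2's Wald test (adjusted p = 0.0326), among genes that reached 10 counts in each library (adjusted p = 0.0248) and with only the groups compared in the fit (adjusted p = 0.00216). The median of the list turned to 0.11 with library size alone.

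Markers of cell types that such a culture could hold were read in counts. All 9 basal markers were present, with a summed level of 15900 to 16420 CPM at 0 h and 11870 to 12560 CPM at 48 h. KRT5, which fell, carried most of that sum at both times. Of the 9 markers, 3 rose and 2 fell (median log2 change 0.06), and KRT14 and KRT17 were among the rises, as given above. TP63 read 142, 143 and 138 CPM at 0 h and 140.2, 139 and 138 CPM at 48 h. The 13 luminal markers, of which 9 were tested and 5 rose, summed to 235 to 255 CPM at 0 h and 471 to 494 CPM at 48 h, but PGR, KIT, SPDEF and CSN2 had 0 counts in all 6 libraries. The rise came with KRT8, KRT18 and AREG, given above. Of 9 fibroblast markers, 6 were tested (2 higher, 3 lower) and they summed to 372 to 379.7 CPM at 0 h and 124 to 133 CPM at 48 h. COL1A2 was at 0 counts in all 6 and COL3A1 and PDGFRA had at most 2 and 4, while COL1A1 and DCN carried nearly all of the sum. FAP rose from 0.342 to 2.23 CPM (log2 change 2.71, adjusted p = 9.64e-13) and POSTN fell from 2.36 to 0.286 CPM (log2 change -3.04, adjusted p = 6.12e-09). Of 7 endothelial markers, CDH5 and CLDN5 were at 0, and 4 were tested (2 higher, 1 lower, median log2 change 0.875). KDR fell from 39.1 to 25.6 CPM (log2 change -0.61, adjusted p = 0.00325). It carried nearly all of a sum of 36.8 to 42 CPM at 0 h and 25.4 to 26.8 CPM at 48 h. PECAM1 was low, with 8, 28 and 23 counts at 0 h and 55, 57 and 51 counts at 48 h. Of 8 immune markers, PTPRC and CD3E were at 0, and 4 were tested (1 higher, 2 lower). The sum was 61.1 to 65.2 CPM at 0 h and 44.2 to 47.8 CPM at 48 h. CSF1R, the receptor for CSF1, fell from 41.4 to 29.9 CPM (log2 change -0.47, adjusted p = 1.95e-07) and CD68 from 16.7 to 5.67 CPM (log2 change -1.56, adjusted p = 9.51e-09), and these carried most of the sum. ITGAM rose from 1.52 to 6.01 CPM (log2 change 1.99, adjusted p = 4.52e-08), and CD14 did not pass, at 3.71 to 3.98 CPM (log2 change 0.10, adjusted p = 0.518). Each of these lists except the basal one thus had members at 0 and members that were expressed and moved. The part of these markers in the results for matrix, complement and cytokine genes was not tested.

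Parental cells given 4-OHT for the same time differed between 48 h and 0 h at 8978 genes (40.5%), 4515 higher (20.4%) and 4463 lower (20.1%). This count was 3274 when only the parental 0 h and 48 h libraries were fitted, and 7733, 10277 and 7065 without parental 0 h replicates 1, 2 and 3. The test of the difference between the lines, the interaction of line and time at 48 h, uses the MYC-ER libraries of the main comparison again. It passed for 9970 genes (45%), with the MYC-ER change above the parental change in 5239 (23.6%) and below it in 4731 (21.4%). Without parental 0 h replicates 1, 2 and 3 it passed for 9290, 11073 and 9326. With library size alone the split was 6319 above and 3633 below. Both lines were called for 4848 genes, 49.6% of the MYC-ER calls and 54% of the parental calls. Of these, 1063 were higher in both and 1456 lower in both, while 1097 were higher in MYC-ER and lower in parental cells and 1232 the reverse. With at least a 2-fold change in both lines, 147 genes were left.

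The change of division genes differed between the lines. The interaction passed for 49 of 49 with the MYC-ER change above the parental change and 0 with it below on the G2 and mitosis list and for 39 of 47 with the MYC-ER change above the parental change and 1 with it below on the S-phase list, where parental cells had 0 higher and 28 lower, and 18 lower with only the parental libraries of the 2 times in the fit. Without each parental 0 h library in turn the interaction still passed for all 49 G2 and mitosis genes, and for 39 S-phase genes with the MYC-ER change above. PIF1 read 19.3, 20.4 and 21.2 CPM in parental cells at 0 h and 16.4, 16.9 and 12.3 CPM at 48 h (interaction 7.04 ± 0.287 SE, adjusted p = 2.68e-14), and the interaction was 6.98 to 7.07 without each parental 0 h library. The starting levels differed: all 47 S-phase and all 49 G2 and mitosis genes had a MYC-ER mean below the parental 0 h mean, both at 0 h and at 48 h of 4-OHT, against 11063 and 10402 of the 22158 genes tested. MKI67 stood at 209 ± 30.6 CPM (SD, n = 3) in parental cells at 0 h, against 1.74 ± 0.0968 and 97.6 ± 5.02 CPM in MYC-ER cells at 0 h and 48 h.

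FBLN5 and KRT10 started higher in MYC-ER than in parental cells. FBLN5 read 1.42, 1.22 and 1.59 CPM in parental cells at 0 h and 1.17, 1.36 and 1.41 CPM at 48 h (interaction -4.99 ± 0.191 SE, adjusted p = 9.24e-15), beside 1.37, 1.41 and 1.68 CPM in MYC-ER cells at 48 h. KRT10 fell in both lines, in parental cells from 539.8 ± 20.9 to 197 ± 19.3 CPM (SD, n = 3), and the fall was larger in MYC-ER cells (interaction -4.42, adjusted p = 3.37e-16). GPNMB fell in both lines, with log2 change -1.38 in MYC-ER and -1.35 in parental cells. Its interaction was -0.03 ± 0.144 SE (adjusted p = 0.914). Without each parental 0 h library in turn the interaction was -4.89 to -5.11 for FBLN5 and -4.41 to -4.45 for KRT10, both past the threshold, and GPNMB did not pass, at -0.15 to 0.07.

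**Figure D4:**
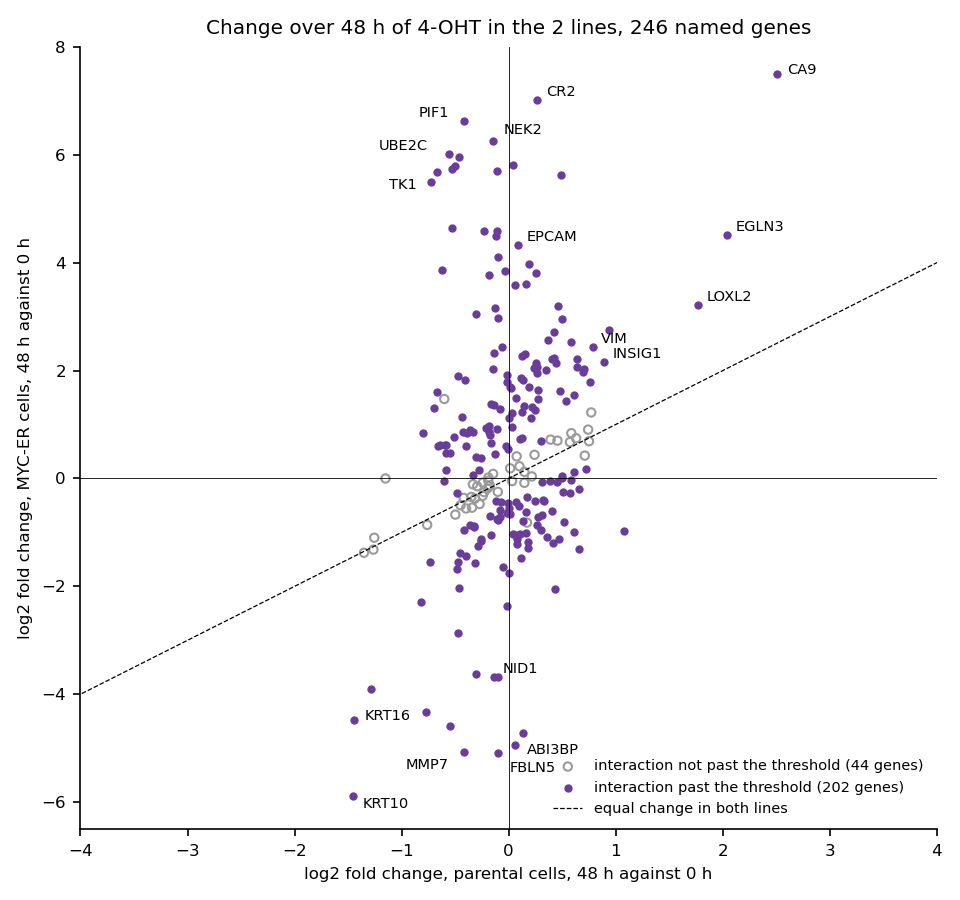
Log2 fold change over 48 h in MYC-ER cells (y axis) against that in parental cells (x axis) for the 246 named genes, filled where the interaction passed the threshold and open where it did not, with a dashed line of equal change. The points spread from -5.88 (KRT10) to 7.50 (CA9) along the y axis, and those 2 genes lie at -1.46 and 2.50 on the x axis.

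The 48 h libraries were also set against the 24 h libraries of the line, a comparison that shares the 48 h group with the main one. It called 11908 genes (53.7%), 6258 higher at 48 h (28.2%) and 5650 lower (25.5%). Division genes stood between the 0 h and 24 h levels at 48 h. All 47 S-phase genes were lower at 48 h than at 24 h, and 48 of 49 G2 and mitosis genes were. Their 48 h mean lay between the 0 h and 24 h means in 42 of 47 and 48 of 49, against 50.8% of all genes. RRM2 had means of 0.866 CPM at 0 h, 189 CPM at 24 h and 20.7 CPM at 48 h (48 h against 24 h, log2 change -3.19 ± 0.0971 SE, adjusted p = 1.41e-16).

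The largest falls from 24 h to 48 h by the naming rule were FAM111B, CCNE2, MCM10, ZNF367 and MYB. FAM111B, a protease of replicating cells, read 78, 71.1 and 69.3 CPM at 24 h and 5.7, 4.93 and 5.11 CPM at 48 h (log2 change -3.79 ± 0.0832 SE, adjusted p = 1.05e-18). CCNE2, cyclin E2, had means of 0.655, 15.3 and 1.08 CPM at 0, 24 and 48 h, and its rise from 0 h to 48 h (adjusted p = 0.0119) was lost without MYC-ER 0 h replicate 2 (adjusted p = 0.0677). The replication factor MCM10, ZNF367 and the transcription factor MYB had log2 changes of -3.49, -3.42 and -3.37 from 24 h to 48 h and of 3.85, 2.28 and 3.61 from 0 h to 48 h.

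The largest rises from 24 h to 48 h were of another kind, CSF1, TNFAIP2, ELF3, ACSS1 and NFATC4. CSF1, the macrophage growth factor, read 54.6, 54.5 and 54.1 CPM at 0 h, 4.28, 4.34 and 4.84 CPM at 24 h and 128, 128 and 128 CPM at 48 h (log2 change 4.84 ± 0.0978 SE, adjusted p = 4.7e-19). TNFAIP2, induced by TNF, had means of 53.1, 3.77 and 101 CPM, and ELF3, an epithelial transcription factor, of 5.98, 0.609 and 22.3 CPM. Both had their highest mean at 48 h. ACSS1, a mitochondrial acetyl-CoA synthetase, and NFATC4 rose too, with means of 0.848 and 0.62 CPM at 24 h and 31.2 and 16.2 CPM at 48 h. The rise of ACSS1 from 0 h to 48 h (adjusted p = 0.0196) was lost in 4 of the 6 fits that left out a library, those without MYC-ER 0 h replicate 2 or 3 and without MYC-ER 48 h replicate 1 or 2.

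The lists were placed in the same way. On the NF-kB and cytokine list 33 of 46 genes were at their lowest of 0, 24 and 48 h at 24 h, against 41.7% of all genes, and 38 of 46 were called higher at 48 h than at 24 h. TNFAIP3 had means of 202, 23.7 and 219 CPM at 0, 24 and 48 h, with the lowest of the 3 at 24 h. SAA1 had means of 682, 37.7 and 319 CPM. The FOXO and quiescence list was lowest of these 3 times at 24 h in 23 of 26, and the ribosomal protein list in 48 of 50. At 8 h the median level of the FOXO list was lower still (log2 CPM 3.63, against 4.52 at 24 h). The median of the NF-kB list was higher at 8 h (2.80) than at 24 h (2.08). That of the ribosomal list was nearly the same at 8 h and 24 h (9.42 and 9.40), with mean summed levels of 40150 and 42050 CPM. BMF, with means of 39.9, 2 and 15.3 CPM, was again higher at 48 h than at 24 h. The growth targets showed the reverse, with 45 of 50 highest of the 3 times at 24 h, against 37.3% of all genes, and FBL at 108, 292 and 195 CPM. Their median level was higher at 8 h than at 24 h (log2 CPM 7.77 against 7.65). KRT10 and FBLN5 stayed low, at 84.4 and 0.896 CPM at 24 h and 101 and 1.49 CPM at 48 h.

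**Figure D5:**
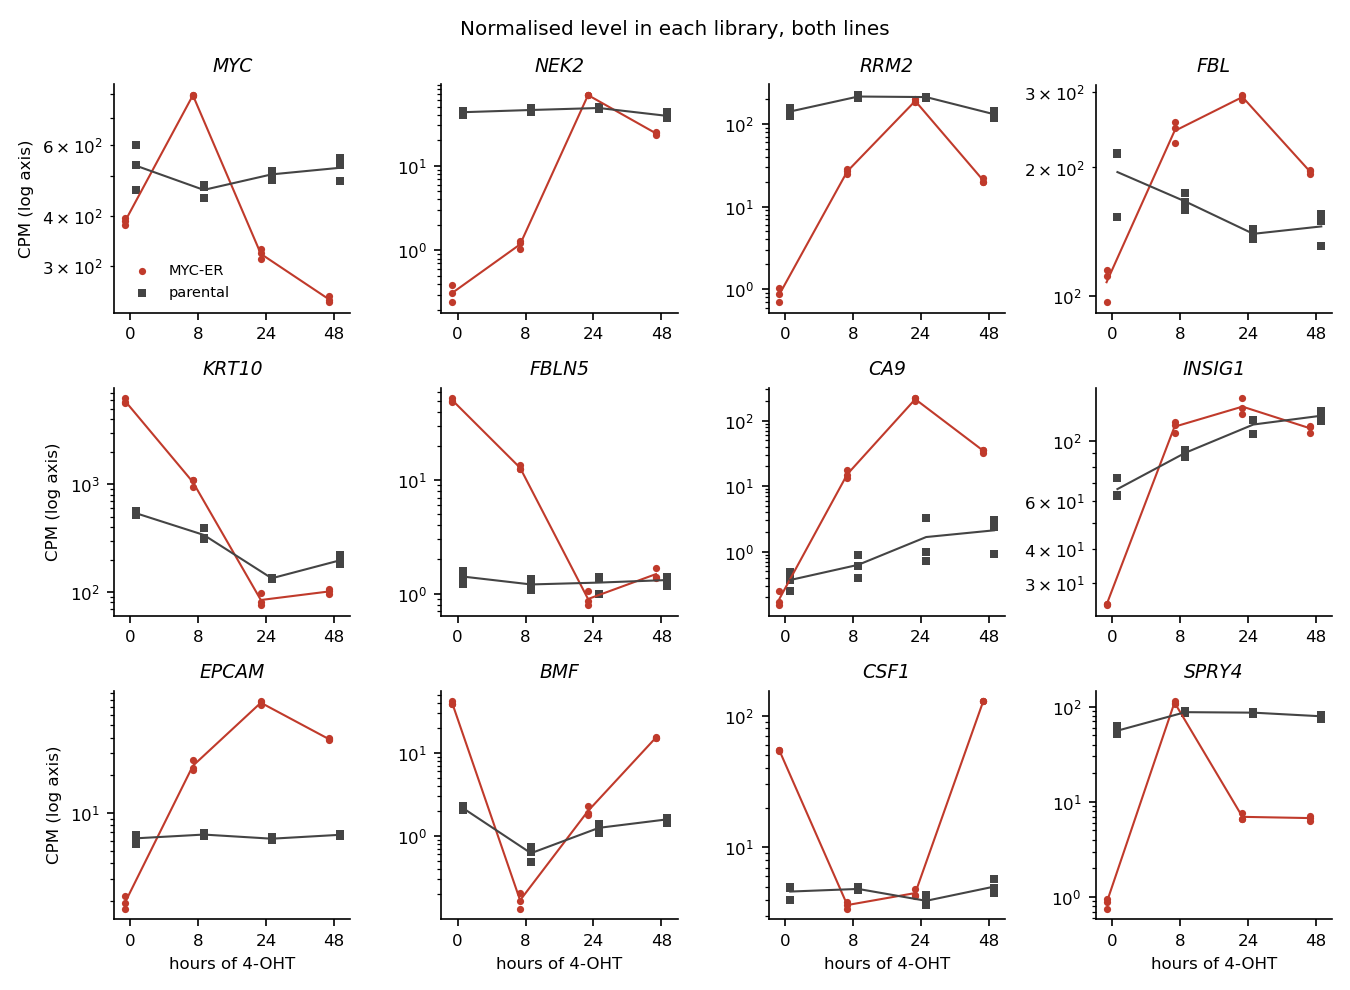
Level in each library (y axis, CPM on a log axis) of 12 genes at 0, 8, 24 and 48 h of 4-OHT (x axis, not to scale) in MYC-ER cells (red circles) and parental cells (dark grey squares), with lines through the means of 3. In MYC-ER cells NEK2, RRM2 and CA9 are highest at 24 h and partly down at 48 h, KRT10 and FBLN5 stay low at 48 h, and BMF and CSF1 fall and then rise again, with CSF1 at 54.4 CPM at 0 h, 4.49 CPM at 24 h and 128 CPM at 48 h.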

How the data were processed

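RNA was sequenced as paired 150-base reads from stranded poly(A) libraries, 3 to a lane, per the labels' protocols. The authors deposited raw gene counts, whole numbers with no normalization. The submitters' processing notes name Trimmomatic 0.39, STAR, StringTie 2.1.3b and GRCh38, and the role of each, the annotation and the strand setting were not given in the sources used here, so reads of overlapping and antisense genes may not be separated. Counts of all 24 libraries were fitted with edgeR 4.0.16 (TMM, filterByExpr, quasi-likelihood, 1 mean per group) in R 4.3.3. Contrasts were adjusted by Benjamini-Hochberg over the 22158 genes tested of 60668, with a threshold of 0.05. Log2 levels used a prior count of 2, and the fitted changes used edgeR's default prior count. Fold changes are fitted log2 values with standard errors. Named genes were the 12 largest rises and falls and the 6 largest by CPM difference (at least 10 CPM in the higher group, no overlap), up to 3 members of each list per direction (at least 5 CPM) and up to 3 not called, the 5 largest per direction in the other contrasts, all members of 3 lists, cell markers, and genes with printed promoters; a few genes that this rule names are not reported here. The members and lists were chosen with earlier results of these data known. The steps were tested on simulated data. Alternatives were other scalings, filters, fits and tools (DESeq2 1.42.0), a GC trend, and leaving out each library. Of 942 list genes, 910 were tested. Totals of 136860029 to 180459929 counts limit a gene at 0 to 0.0166 to 0.0219 CPM a library, from 3 counts, which covers counting error only.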

Additional observations from a re-analysis of the deposited data

Results flagged for a closer look

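The change over 48 h differed between MYC-ER and parental cells by the interaction term of edgeR's quasi-likelihood test, which passed for 9970 genes. Among genes named by rule, the MYC-ER change was above the parental change by a log2 value of 7.04 for PIF1, 6.74 for CR2, 6.56 for UBE2C, 6.42 for TROAP and 6.41 for NEK2. It was below it by a log2 value of -4.42 for KRT10, -4.66 for MMP7, -4.86 for SLC2A14, -4.99 for FBLN5 and -5.00 for ABI3BP. The levels of PIF1, FBLN5 and KRT10 in both lines are given above. Each group had 3 libraries, too few for a test of single libraries that stand apart, but the parental 0 h libraries, which every one of these values uses, differed more among themselves than those of any other group.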

How the results depend on the processing

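Of 3681 checks of the 246 named genes under 15 alternatives, 3607 kept the side of the threshold, 40 lost a call and 33 gained one. Only 1 called gene reversed: MLX had a log2 change of 0.0231 with library size alone. A change of direction in a gene called in neither fit was not counted as a reversal. With at least 10 counts in every library 1764 genes changed at least 2-fold, with only the groups compared 3274 parental genes were called, and with library size alone 73.8% of calls were higher; the cause was not tested. Leaving out 1 library gave 8639 to 8795 calls, 2773 to 2838 at least 2-fold, 52.2% to 53.6% of calls higher, 7065 to 10277 parental calls, 9149 to 11073 for the interaction and 10789 to 11120 for 48 h against 24 h. DESeq2's Wald test called 10065. With only the MYC-ER 0 h and 48 h libraries in the fit, 12084 genes were called. In that fit 12 named genes gained a call, among them ENO1, SLC7A5, MXD4 and BAK1, and 233 kept their side of the threshold. With library size alone 12 named genes gained a call, among them MCL1, HLA-E, MXI1, TGFA and NRG4, and 7 lost one. Whether replicate numbers pair the samples could not be decided from 3 libraries a group. Deviations of same-numbered MYC-ER 0 h and 48 h libraries correlated at 0.133, -0.000981 and -0.236, and those of differently numbered ones at -0.294 to 0.275. With a replicate block 9573 genes were called, 2884 at least 2-fold, 8720 in parental cells, 9737 for the interaction and 11712 for 48 h against 24 h, and among named genes EREG lost its call and KRT19 gained one. Counts limit genes near 0.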
